A study of Mus musculus with 14 samples.

Results

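The genes described here encode 10 proteins that set the membrane potential or carry calcium and other cations in T cells. They are the potassium channels Kcna2, Kcna3 and Kcnn4, the calcium channel subunits Orai1 and Orai2, the calcium sensors Stim1 and Stim2, the cation channels Trpm4 and Trpv2, and the ATP-gated channel P2rx7. The genes were taken by symbol, and all 10 were found among the 55291 symbols of both tables. They were chosen as channel genes by symbol and with the log2 fold changes of both comparisons already known, so these fold changes and the levels behind them count as used in the choice. They are therefore given as a description, and no p-value is printed for any of the 10.

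When a T cell receptor is engaged, calcium leaves the endoplasmic reticulum, STIM proteins in its membrane sense the loss, and they open ORAI pores in the plasma membrane. Entry through ORAI is driven by the negative membrane potential, which potassium leaving through the voltage-gated Kv1 channels and the calcium-activated KCNN4 channel maintains. The calcium then activates calcineurin and through it the NFAT transcription factors.

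RNA sequencing of poly(A) RNA was carried out on 14 mouse libraries from 2 experiments, and all samples are labelled wild type and CD8+ T cells. The ND-646 group (n = 4) was cultured from unsorted spleen cells of OT-1 mice, in which the receptor of CD8+ T cells recognises an ovalbumin peptide. The cells were activated for 3 days in 200 U/mL interleukin-2 with the peptide at 1 µg/mL, then expanded for 4 days, in 100 nM of the acetyl-CoA carboxylase inhibitor ND-646. The vehicle group (n = 4) was cultured in the same way with DMSO. The tumour group (n = 3) held CD8+ T cells enriched and sorted from MCA205 fibrosarcomas 14 days after injection under the skin of C57BL/6 mice, and the tumour samples are called pooled without saying what was pooled. The spleen group (n = 3) held CD8+ T cells taken in the same way from spleens in that experiment. The labels do not say whether replicates were separate cultures or mice, so the SDs and tests below rest on a spread between libraries that may be only technical. By chi-square per degree of freedom over genes, ND-646 libraries 1 and 4 (5.39) and 2 and 3 (3.86) were closer to each other than libraries across these pairs (7.9 to 12.2).

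Library totals ran from 27.9 to 33.8 M (1e+06) estimated counts in ND-646, 23.5 to 29.0 M in vehicle, 19.6 to 21.0 M in tumour and 19.8 to 20.8 M in spleen libraries. The 17 CD8 T cell identity genes summed to between 6981 and 7225 CPM (counts per 1e+06 of the scaled library) in ND-646 libraries and between 7028 and 7387 CPM in vehicle libraries, with 6 genes higher and 8 lower at an adjusted p under 0.05 (Benjamini-Hochberg over all genes) by the quasi-likelihood test of edgeR, the threshold meant throughout. In tumours they summed to between 4671 and 6287 CPM, against 10328 to 10403 CPM in spleen, and all 17 were lower. Markers of fibroblasts and fibrosarcoma were higher in tumours in all 22 tested of 23, with sums of 13202 to 19011 CPM in tumour libraries (Col3a1 the most abundant, at a mean of 3083 CPM) against 5.93 to 24.01 CPM in spleen libraries (Lum at 0). Dendritic cell markers were higher in tumours in 5 of 7 tested and lower in 1 (335 to 419 CPM in tumour and 16.3 to 26.6 CPM in spleen). Fscn1 alone had a mean of 320.4 CPM in tumour. CD4 and regulatory T cell markers were higher in tumours in 4 of 7 (371 to 492.9 CPM and 39.5 to 44.0 CPM), with Ctla4 at a mean of 242.6 CPM there. Macrophage, monocyte and neutrophil markers were higher in tumours in 8 of 12 (45.8 to 67.1 CPM and 16.7 to 20.9 CPM, Ly6g at 0 in both). NK and gamma delta markers were higher there in 8 of 10 and lower in 2, with sums of 113 to 132 CPM in tumour and 118 to 129 CPM in spleen. Endothelial markers were higher in 6 of 7 and lower in 1, with sums of 52.6 to 61.8 CPM in tumour and 161 to 172 CPM in spleen, of which Pecam1 averaged 27.05 CPM and 166 CPM. The 1 erythroid and platelet marker tested was lower in tumours, and in the cultures it was not called. In the cultures, CD4 and regulatory T cell markers were lower in 5 of 7 and higher in 1 (881 to 906 CPM in ND-646 and 1298 to 1321 CPM in vehicle). Of these sums, Il2ra alone averaged 584 CPM in ND-646 and 1009 CPM in vehicle. Markers of NK or gamma delta cells were lower in 6 of 8 and higher in 1 (186 to 195 CPM and 231 to 240.0 CPM). Trdc, the most abundant of them, went the other way from the sum, with means of 160 CPM in ND-646 and 135 CPM in vehicle. Both endothelial markers tested were lower in ND-646 cultures, and 1 of 5 dendritic cell markers was higher and 2 lower there, as were 1 and 2 of 7 fibroblast markers. Macrophage, monocyte and neutrophil markers were lower in ND-646 cultures in 5 of 6 tested of 20, with sums of 10.3 to 13.3 CPM in ND-646 and 24.9 to 29.0 CPM in vehicle libraries, where C1qc, S100a8, S100a9 and Csf3r were at 0 in both groups. The part of other cells in the differences below was not tested. In RNA of whole samples, fewer cells of a type and less RNA per cell cannot be told apart.

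The stretches upstream of the transcription starts of 5 genes are shown, since Kcna2 and Kcna3 were both lower in tumours, Orai1 and Orai2 differed in opposite directions there, and P2rx7 had the largest difference in culture. Each runs 5′ to 3′ over the 250 bases before the RefSeq start (GRCm38.p6), at chr3:107101317-107101566 (+) for Kcna2, chr3:107035912-107036161 (+) for Kcna3, chr5:123014824-123015073 (+) for Orai1, chr5:136170657-136170906 (-) for Orai2 and chr5:122643677-122643926 (+) for the first of 2 starts of P2rx7. Capitals mark GGAAA, the core of NFAT sites, and TGANTCA, an AP-1 site, on either strand.
Kcna2: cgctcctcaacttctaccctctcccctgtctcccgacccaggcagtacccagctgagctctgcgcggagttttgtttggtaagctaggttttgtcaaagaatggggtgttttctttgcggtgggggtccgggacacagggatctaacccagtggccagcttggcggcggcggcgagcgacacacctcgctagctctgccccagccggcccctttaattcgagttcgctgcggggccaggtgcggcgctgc
Kcna3: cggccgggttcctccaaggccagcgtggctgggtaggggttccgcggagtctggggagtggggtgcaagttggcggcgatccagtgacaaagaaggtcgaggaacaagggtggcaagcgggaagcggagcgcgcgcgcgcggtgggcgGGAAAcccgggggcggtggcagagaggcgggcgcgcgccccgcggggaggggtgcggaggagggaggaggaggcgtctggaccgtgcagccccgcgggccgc
Orai1: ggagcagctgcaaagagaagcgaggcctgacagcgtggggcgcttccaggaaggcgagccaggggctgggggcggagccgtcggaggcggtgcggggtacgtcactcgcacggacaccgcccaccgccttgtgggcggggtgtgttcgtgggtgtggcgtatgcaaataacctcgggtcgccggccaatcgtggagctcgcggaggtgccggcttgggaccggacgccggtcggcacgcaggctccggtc
Orai2: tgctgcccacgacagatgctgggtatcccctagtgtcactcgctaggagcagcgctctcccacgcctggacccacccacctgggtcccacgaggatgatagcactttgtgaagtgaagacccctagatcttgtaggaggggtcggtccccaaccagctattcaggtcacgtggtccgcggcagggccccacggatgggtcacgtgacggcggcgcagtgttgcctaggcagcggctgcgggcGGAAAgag
P2rx7: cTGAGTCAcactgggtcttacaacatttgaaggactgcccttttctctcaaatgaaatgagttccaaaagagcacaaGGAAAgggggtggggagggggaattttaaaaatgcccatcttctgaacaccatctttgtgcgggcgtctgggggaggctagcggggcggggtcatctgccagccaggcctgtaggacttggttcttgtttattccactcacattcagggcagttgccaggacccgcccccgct
Kcna3, Orai2 and this P2rx7 start each held 1 GGAAA, and P2rx7 also 1 TGANTCA, which did not overlap its GGAAA. Over the first listed start of 27025 genes, 55.6% of such windows held GGAAA and 6.87% held TGANTCA. The Kcna2 and Orai1 windows held neither, which says only that these letters were not in these 250 bases. Also searched on both strands were GGGCGG, held by 32.9% of windows, CACCC, held by 51.3%, and ATCAAAG, held by 3.23%. CACCC was in all 5 windows shown, GGGCGG in all but that of Kcna2, and ATCAAAG in none. In the Kcna3 and Orai2 windows the marked GGAAA shared bases with a GGGCGG. CG dinucleotides numbered 18 for Kcna2, 31 for Kcna3, 30 for Orai1, 17 for Orai2 and 6 for P2rx7, against a median of 6 over all genes. RefSeq windows were found for 9 of the 10 genes, not for Trpm4.

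The voltage-gated channels had the widest range of any genes in the set. Kcna2, which encodes Kv1.2, had 0.741, 0.513 and 0.430 CPM in the 3 tumour libraries, against 92.9, 92.0 and 89.1 CPM in the 3 spleen libraries. These values rest on 15, 10 and 9 counts in tumours, against 1926, 1843 and 1786 counts in spleen. The groups were far apart, with a log2 fold change of -7.33 ± 0.11 (SE), or 161-fold lower in tumours, and 0.226% of the genes tested had a lower one. Over the summed counts, 34 in tumours and 5555 in spleen, the ratio was 0.00614 (exact 95% interval 0.00425 to 0.00859, counting error only). That interval is wider than the SE implies. In the cultures Kcna2 was at or near 0, with no count in the 4 ND-646 libraries and 1, 0, 2 and 1 counts in the 4 vehicle libraries, all within the 3 counts per library that a count of 0 allows, so no fold is given.

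Kcna3 encodes Kv1.3, a voltage-gated channel of T cells. It had 13.1, 19.3, 22.7 and 18.4 CPM in ND-646 libraries, against 30.8, 27.8, 34.7 and 30.6 CPM in vehicle libraries. The groups did not overlap, and ND-646 replicate 1 was the lowest of the 8. The log2 fold change was -0.75 ± 0.15 (SE). Between tissues, Kcna3 had 9.09, 6.47 and 8.17 CPM in tumour libraries, against 51.8, 51.4 and 49.9 CPM in spleen libraries. It was 6.44-fold lower in tumours, with a log2 fold change of -2.69 ± 0.11 (SE).

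Kcna2 and Kcna3 both form Kv1 channels, and their shares of the summed counts differed between tissues. Kcna2 took 7.54%, 7.35% and 5% of Kcna2 plus Kcna3 counts in tumour libraries, against 64.2%, 64.2% and 64.1% in spleen libraries. In the cultures its share was 0% in every ND-646 library and at most 0.247% in a vehicle library. A share of counts depends on transcript length as well as on the number of molecules, so it is set against itself across groups and not read as a share of channels.

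Kcnn4 encodes KCa3.1, which opens when cytosolic calcium rises. It had 133, 138, 133 and 130.0 CPM in ND-646 libraries, against 166, 175, 158 and 166 CPM in vehicle libraries. The groups did not overlap, and the log2 fold change was -0.32 ± 0.04 (SE). In tumours Kcnn4 had 157, 132 and 129 CPM, against 249.6, 243 and 246 CPM in spleen. That difference, -0.82 ± 0.07 (SE) on the log2 scale, turned to 0.10 ± 0.11 when libraries were scaled by the CD8 identity genes.

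**Figure D1:**
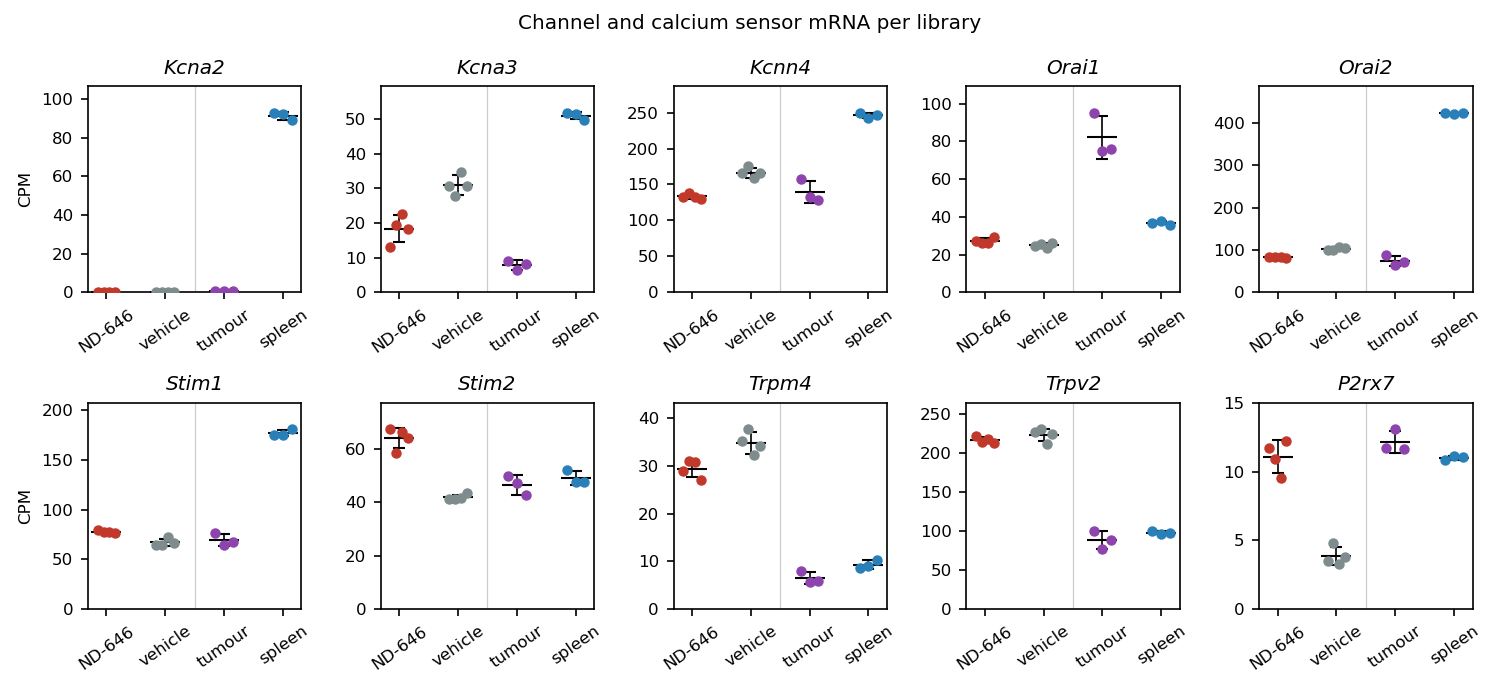
CPM of the 10 genes in each library (points), with the group mean and SD (bars), for ND-646 and vehicle cultures (n = 4 each, left of the line) and tumour and spleen CD8+ T cells (n = 3 each, right). Each panel has its own axis from 0. Kcna2 stands at 89.1 to 92.9 CPM in spleen and below 1 CPM in all other libraries, and Orai1 is highest in tumours.

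The ORAI pore genes differed in opposite directions in tumours. Orai1, the main pore subunit of store-operated entry, had 95.1, 75.0 and 76.1 CPM in tumour libraries, against 36.9, 37.6 and 35.9 CPM in spleen libraries. Every tumour library lay above every spleen library, with a log2 fold change of 1.16 ± 0.09 (SE). Under TMM scaling, the edgeR scaling used unless stated, P2rx7 (0.14) was the one other gene of the 10 with a log2 fold change above 0 in tumours. Orai2, a paralog that in mouse T cells joins ORAI1 in mixed channels and reduces their current, had 87.0, 63.4 and 70.5 CPM in tumour libraries, against 423, 421 and 423 CPM in spleen libraries. It was 5.74-fold lower in tumours, with a log2 fold change of -2.52 ± 0.10 (SE).

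The cultures showed smaller differences in the pair. Orai2 had 82.9, 82.5, 82.2 and 80.9 CPM in ND-646 libraries, against 99.0, 99.7, 107 and 106 CPM in vehicle libraries. The groups did not overlap, with a log2 fold change of -0.32 ± 0.04 (SE). Orai1 had 27.2, 26.2, 26.0 and 29.5 CPM in ND-646 libraries, against 24.8, 25.3, 23.2 and 26.1 CPM in vehicle libraries, and the lowest ND-646 library lay below the highest vehicle library (log2 fold change 0.13 ± 0.06, SE).

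Within a library, the share of Orai1 in Orai1 plus Orai2 counts does not depend on scaling. It was 24.9% ± 1.255 in ND-646 and 19.5% ± 1.11 in vehicle libraries (SD, n = 4 each), with no overlap. It was 52.8% ± 1.24 in tumour and 8.01% ± 0.185 in spleen libraries (SD, n = 3 each). The 3 tumour libraries spanned 51.9% to 54.2%.

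**Figure D2:**
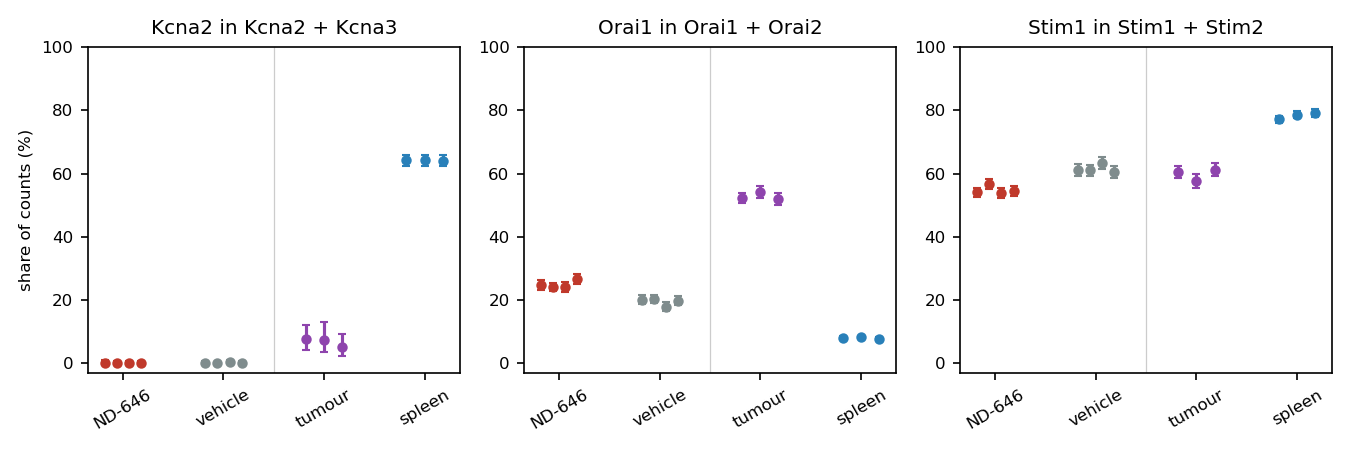
Share of Kcna2 in Kcna2 plus Kcna3 counts, of Orai1 in Orai1 plus Orai2 counts and of Stim1 in Stim1 plus Stim2 counts (percent), 1 point per library, with exact 95% binomial intervals that cover counting error only. The Orai1 share is near 53% in tumours and 8% in spleen.

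Stim1, the principal sensor of store depletion, and Stim2, a sensor that responds to smaller losses of stored calcium, were both higher in ND-646 cultures. Stim2 had 67.5, 58.8, 66.6 and 64.1 CPM in ND-646 libraries, against 41.4, 41.2, 41.6 and 43.5 CPM in vehicle libraries. Stim1 had 79.6, 76.9, 77.6 and 76.8 CPM in ND-646 libraries, against 64.7, 64.6, 72.0 and 66.3 CPM in vehicle libraries. Neither gene's groups overlapped, and the log2 fold changes were 0.62 ± 0.05 for Stim2 and 0.22 ± 0.04 for Stim1 (SE).

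In tumours the 2 sensors differed from each other. Stim1 had 75.9, 64.5 and 67.4 CPM in tumour libraries, against 175, 175 and 181 CPM in spleen libraries, 2.56-fold lower (log2 fold change -1.35 ± 0.06, SE). Stim2 had 49.8, 47.4 and 42.6 CPM in tumour libraries, against 52.1, 47.6 and 47.7 CPM in spleen libraries, and its groups overlapped (-0.08 ± 0.07, SE). Stim1 made up 54.8% ± 1.30 of Stim1 plus Stim2 counts in ND-646 and 61.5% ± 1.31 in vehicle libraries (SD, n = 4 each), and 59.7% ± 1.90 in tumour and 78.3% ± 1.06 in spleen libraries (SD, n = 3 each).

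Trpm4 encodes a channel that calcium opens and that passes sodium, which depolarises the membrane. It had 28.9, 31.1, 30.8 and 27.1 CPM in ND-646 libraries, against 35.2, 37.7, 32.2 and 34.3 CPM in vehicle libraries, without overlap (log2 fold change -0.24 ± 0.06, SE). It had 8.01, 5.65 and 5.93 CPM in tumour libraries, against 8.53, 8.94 and 10.3 CPM in spleen libraries (-0.50 ± 0.16, SE). That second difference turned to 0.41 ± 0.18 under CD8 identity scaling. It was -0.38 without tumour replicate 2, -0.41 without tumour replicate 3 and -0.40 without spleen replicate 3. Trpm4 overlaps a processed pseudogene on the other strand, Rpl14-ps1, with 17.96 and 18.1 CPM in ND-646 and vehicle and 9.92 and 12.5 CPM in tumour and spleen, and whether counting used strand is not given in the sources used here.

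Trpv2, a cation channel, had little difference in either comparison under TMM scaling. It had 221, 214, 218 and 212 CPM in ND-646 libraries, against 226, 229.8, 212 and 224 CPM in vehicle libraries (log2 fold change -0.04 ± 0.04, SE). In tumours it had 99.5, 76.2 and 87.8 CPM, against 100.1, 96.0 and 96.7 CPM in spleen (-0.15 ± 0.09, SE). Both pairs of groups overlapped. Without tumour replicate 1 the second difference was -0.21, and under CD8 identity scaling of all libraries it was 0.77 ± 0.11 (SE).

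P2rx7, a channel opened by extracellular ATP, had the largest difference of the set in culture. It had 11.7, 10.9, 9.53 and 12.2 CPM in ND-646 libraries, against 3.52, 4.83, 3.27 and 3.79 CPM in vehicle libraries. Every ND-646 library lay above every vehicle library, and the log2 fold change was 1.52 ± 0.11 (SE), or 2.86-fold. In tumours P2rx7 had 11.7, 13.1 and 11.7 CPM, against 10.8, 11.1 and 11.1 CPM in spleen (0.14 ± 0.10, SE), and the groups did not overlap. Vehicle cultures were thus the low group, and the other 3 groups lay between 9.53 and 13.1 CPM.

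**Figure D3:**
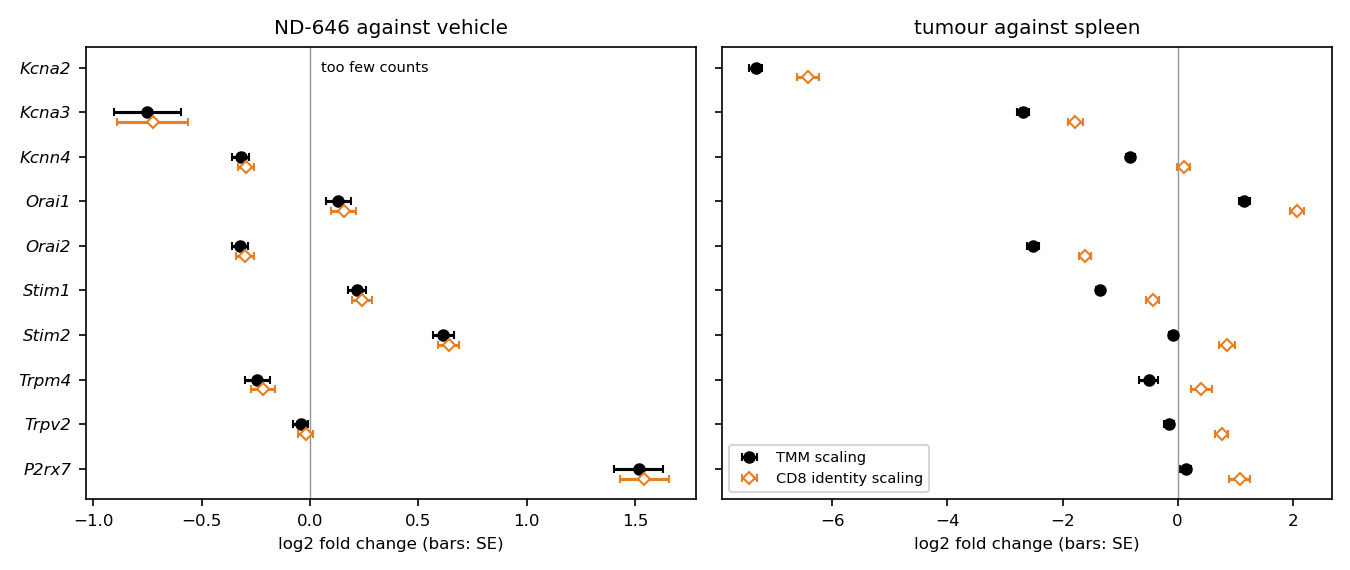
Log2 fold change of each gene for ND-646 against vehicle (left) and tumour against spleen (right), with SE, under TMM scaling (filled) and under scaling by 17 CD8 identity genes (open). The scalings nearly coincide in culture, while all tumour values shift up by about 0.93, which turns the sign of Kcnn4, Stim2, Trpm4 and Trpv2.

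Counted over the set, 9 of the 10 genes had enough counts to be tested in the cultures, all but Kcna2. As a description only, since these fold changes were known when the genes were chosen, 7 of the 9 lay past the threshold, where 56.3% of all 14251 genes did. Stim1, Stim2 and P2rx7 were higher (3 genes, where 29.8% of all genes were called higher), and Kcna3, Kcnn4, Orai2 and Trpm4 were lower (4 genes, where 26.5% were called lower). The same 7 had groups that did not overlap, as 51.1% of all genes did (27.0% higher and 24.1% lower). Past the 2-fold threshold of the same fit lay 1 of the 9, P2rx7, as 3.09% of all genes did (1.16% higher and 1.93% lower). The median log2 fold change was -0.04 for the 9 genes and 0.01 for all genes tested.

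In tumours against spleen 7 of the 10 genes lay past the threshold, again as a description, where 83.8% of all 15042 genes did. Orai1 was higher (1 gene, where 43.6% of all genes were called higher), and Kcna2, Kcna3, Kcnn4, Orai2, Stim1 and Trpm4 were lower (6 genes, where 40.2% were called lower). Groups did not overlap for 8 genes, these 7 and P2rx7, as for 86.2% of all genes (44.6% higher and 41.6% lower). Kcna2, Kcna3, Orai1, Orai2 and Stim1 lay past the 2-fold threshold, as 39.9% of all genes did (25.1% higher and 14.8% lower). The median log2 fold change was -0.66 for the 10 genes and 0.03 for all genes. The calls at an adjusted p under 0.05 depended on the processing. Trpm4 did not pass without tumour replicate 2, tumour replicate 3 or spleen replicate 3, and Trpv2 passed without tumour replicate 1. Under CD8 identity scaling Kcnn4 and Trpm4 did not pass, while Stim2, Trpv2 and P2rx7 passed as higher. Since the genes were chosen with these results known, nothing is read from these counts.

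The tumour values depended on the scaling. Scaling by CD8 identity genes, which takes them as constant per T cell, moved the median of all genes by 0.93 on the log2 scale, and 84.4% of its calls were higher, against 52.0% under TMM. Under it Kcna2, Kcna3, Orai2 and Stim1 were still lower in tumours, with log2 fold changes of -6.42, -1.78, -1.61 and -0.43, and Orai1 was higher at 2.08. The values of Stim2, Trpv2 and P2rx7 were then 0.86, 0.77 and 1.08. In the cultures the same scaling moved the median by 0.02, and Orai1 was then at 0.16 and past the threshold.

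The tumour libraries also differed among themselves. Tumour replicate 1 had the highest summed CD8 identity genes (6287 CPM, against 4671 and 5525 CPM in tumour replicates 2 and 3) and the lowest fibroblast sum (13202 CPM, against 19011 and 16823 CPM). It also held the highest tumour value of 9 of the 10 genes, all but P2rx7, where 38.3% of all genes tested were highest there. Orai1, higher in tumours than in spleen, was among these 9. The part of cell mixture in these values was not tested.

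Across the 4 groups the order of levels differed from gene to gene. The 2 experiments were normalised separately, so levels set across them are descriptive. Kcna3 was highest in spleen, then vehicle, ND-646 and tumour, and no neighbours in that order overlapped. Orai2 had the same order, with ND-646 and tumour libraries overlapping. Kcnn4 ran from spleen through vehicle to tumour and ND-646, the last 2 overlapping. Stim1 ran from spleen through ND-646 to tumour and vehicle, and again the last 2 overlapped.

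Kcna2 was also highest in spleen, and the remaining genes had other highest groups. Orai1 was highest in tumour, then spleen, ND-646 and vehicle, where ND-646 and vehicle libraries overlapped. Stim2 was highest in ND-646, and spleen overlapped tumour, which overlapped vehicle. Trpm4 and Trpv2 were higher in both kinds of culture than in either tissue, with means of 29.5 and 34.9 CPM for Trpm4 in ND-646 and vehicle and of 6.53 and 9.25 CPM in tumour and spleen. Trpv2 averaged 216 and 223 CPM in ND-646 and vehicle and 87.8 and 97.6 CPM in tumour and spleen. With all 14 libraries scaled together, 9 of the 10 genes kept their order, and in P2rx7 spleen and ND-646 changed places. Some overlaps changed, however. Kcnn4 in tumour (136 to 163 CPM) then overlapped vehicle (153 to 169 CPM) and not ND-646 (126 to 133 CPM). Stim1 in tumour (68.5 to 78.6 CPM) then also overlapped ND-646 (74.0 to 77.5 CPM). Stim2 in tumour (45.1 to 51.6 CPM) no longer overlapped vehicle (39.9 to 42.1 CPM).

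Levels of different genes were compared as CPM per kilobase of the longest coding transcript in GENCODE M21 (build GRCm38), since a long transcript yields more reads. On that scale Kcnn4 was the most abundant of the 10 in vehicle, tumour and spleen libraries, at 83.6, 70.0 and 124 CPM per kb. Trpv2 led in ND-646 libraries at 74.4 CPM per kb, above Kcnn4 at 67.0. Orai2 followed Kcnn4 in spleen at 106 CPM per kb, where Orai1 stood at 19.6, while in tumours Orai1 followed Kcnn4 at 43.8 and Orai2 stood at 18.5.

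By the longest transcript, P2rx7, Trpm4 and Kcna2 ranked lowest of the 10 genes in every group. P2rx7 stood at 2.25 and 0.781 CPM per kb in ND-646 and vehicle and at 2.46 and 2.23 in tumour and spleen. Trpm4 stood at 6.96 and 8.23 in ND-646 and vehicle and at 1.54 and 2.18 in tumour and spleen. By the median length, Stim2 ranked below Trpm4 in vehicle and below Kcna2 in spleen, and Kcna3 ranked below P2rx7 in tumours. Kcna2 in spleen stood at 7.88 CPM per kb of a transcript of 11582 bases, and at 20.9 with the median transcript of 4370 bases. The files do not say which transcript was used, and with median lengths 28 of the 40 gene and group ranks were the same.

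**Figure D4:**
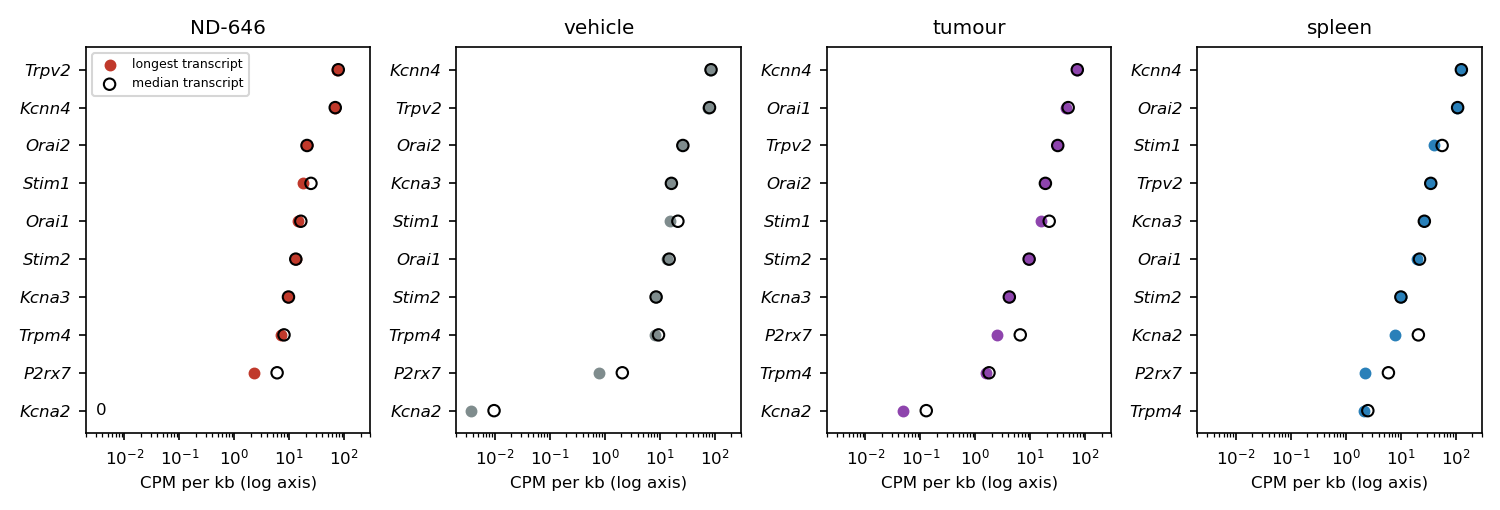
CPM per kilobase (log axis) of the 10 genes, ordered in each group by the value for the longest coding transcript (filled), with the value for the median transcript length open. Kcnn4 leads in 3 of 4 groups, and the ranks of Orai1 and Orai2 differ between tumour and spleen. Kcna2 was at 0 in ND-646 libraries.

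For the 3 genes with the widest range of group means (Kcna2, Kcna3 and Orai2), the genes of most similar profile were found among 10346 genes, by the root-mean-square difference of centred log2(CPM + 0.5) over the 14 libraries. The profiles share libraries and scaling, so this is a description. Nearest to Kcna2 was Dtx1 (difference 0.17), at 2.35 and 2.30 CPM in ND-646 and vehicle and 6.13 and 467 CPM in tumour and spleen, followed by Slc16a5 (0.39) and Tmie (0.64). Kcna2 itself had means of 0 and 0.0424 CPM in ND-646 and vehicle. Its culture values on this scale are therefore set mostly by the added 0.5, and its nearness to Dtx1 there is no likeness of measured levels. In tumours the Kcna2 mean of 0.562 CPM was also close to the 0.5 added, so those values are set in large part by it. Nearest to Kcna3 were Vsir (0.26), Tbc1d10c (0.26) and Dnah8 (0.26). Nearest to Orai2 were Rassf2 (0.07), Pced1b (0.12) and Il27ra (0.12).

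**Figure D5:**
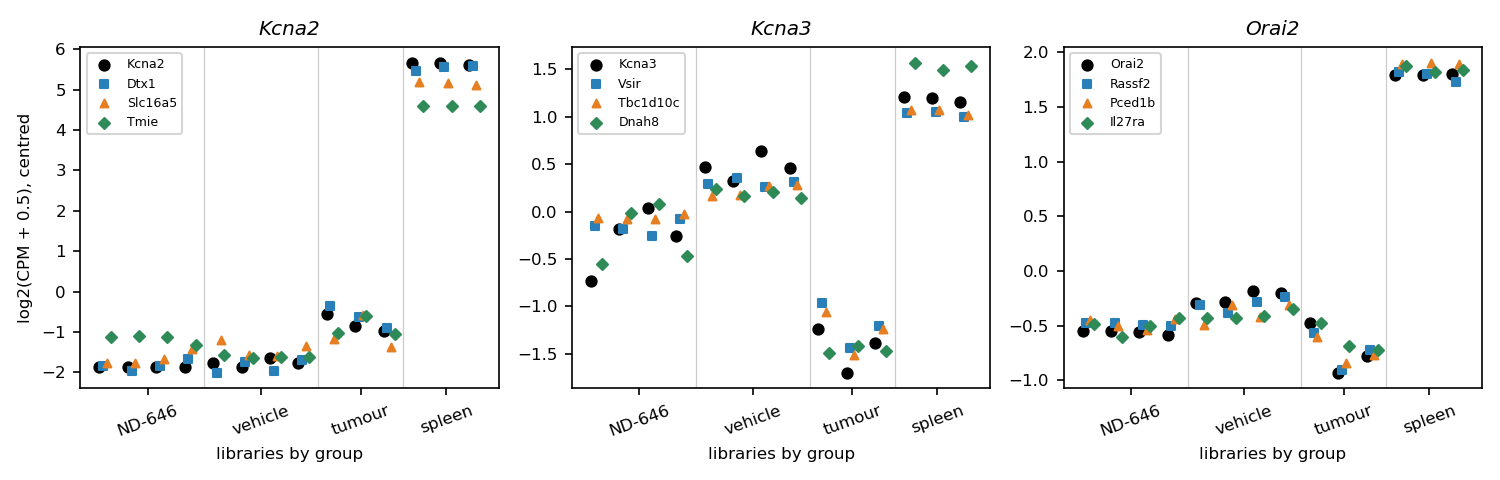
Centred log2(CPM + 0.5) of Kcna2, Kcna3 and Orai2 (black) and of the 3 genes closest to each, 1 point per library, grouped as ND-646, vehicle, tumour and spleen. Rassf2 follows Orai2 closely in all groups. Dtx1 lies close to Kcna2, but in the cultures the Kcna2 points are set mostly by the 0.5 added to CPM. In tumours the Kcna2 points are set in large part by it.

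Other genes of the same pathways were read from 10 lists of 233 symbols, of which 231 were in the tables. In ND-646 cultures 150 were tested, 49 rose and 46 fell, where 29.8% of all genes rose and 26.5% fell, and the median log2 fold change was 0.05. In tumours 164 were tested, 83 rose and 62 fell, where 43.6% of all genes rose and 40.2% fell, with a median of 0.19. Named below are the 2 genes of each list with the smallest p among called genes of at least 10 CPM in 1 group whose groups did not overlap. Values are log2 fold changes ± SE from edgeR, with adjusted p of at most 0.0168 in the cultures and at most 0.00269 in the tissues. The lists were chosen with earlier results of these data known, and the named genes by their p. Their p-values therefore describe the selection and are no independent support.

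Among 18 other potassium channel genes tested in the cultures, 6 rose and 7 fell, with the K2P channel genes Kcnk6 at -0.68 ± 0.09 and Kcnk5 at -0.30 ± 0.04. In tumours 11 of 20 rose and 8 fell, with the voltage-gated Kcnc1 at -4.04 ± 0.13 and Kcnk5 at 3.38 ± 0.17. Kcnk5 thus moved in opposite directions in the 2 comparisons. Of the 5 regulators of KCNN4, 2 rose and 1 fell in the cultures. Nme2, a histidine kinase that activates the channel, changed by -0.38 ± 0.04, and Trim27, which inhibits the pathway, by 0.30 ± 0.04. In tumours 2 rose and 2 fell. The histidine phosphatase Phpt1 changed by -0.49 ± 0.09 (0.44 under CD8 identity scaling) and Nme2 by 0.22 ± 0.05.

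Among partners of store-operated entry, 6 of 21 rose and 6 fell in the cultures. Plcg2, a phospholipase C, changed by -1.14 ± 0.05, and Saraf, which inactivates store-operated entry, by 0.61 ± 0.04. In tumours 11 of 23 rose and 10 fell. Itpr2, a calcium release channel of the endoplasmic reticulum, changed by -2.01 ± 0.06. Cav1, a caveolin abundant in fibroblasts, had 404 CPM in tumours against 0.0815 CPM in spleen (5 counts in all).

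Of 20 pumps, exchangers and uniporter genes, 6 rose and 5 fell in the cultures. Atp2a3, a pump that refills the endoplasmic reticulum, changed by 0.45 ± 0.04 and Mcu, the mitochondrial uniporter, by 0.57 ± 0.07. In tumours 15 of 20 rose and 3 fell, with the pump Atp2a2 at 1.53 ± 0.05 and the mitochondrial porin Vdac3 at 1.31 ± 0.05. Of 9 other TRP and polycystin genes, 4 rose and 1 fell in the cultures, with Pkd2 at 1.39 ± 0.07 and Pkd1 at 0.37 ± 0.06. In tumours 3 of 13 rose and 9 fell, with Trpm1 at -3.91 ± 0.15 (means of 1.22 CPM in tumour and 18.4 CPM in spleen). Pkd2, with 3157 counts over the tumour libraries against 1 over the spleen libraries, had a ratio of 3166 (exact 95% interval 567.9 to 125103, counting error only).

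Of 16 genes of extracellular ATP and other P2X receptors, 5 rose and 7 fell in the cultures. Entpd1, the ectonucleotidase CD39, changed by -1.09 ± 0.05 and the adenosine receptor Adora3 by -1.61 ± 0.09. In tumours 9 of 14 rose and 4 fell. Art2b, an ecto-ADP-ribosyltransferase that activates P2RX7 on mouse T cells, had 1.66 ± 0.630 CPM in tumours against 119 ± 8.27 CPM in spleen (SD, n = 3 each; log2 fold change -6.17 ± 0.16, SE, edgeR adjusted p = 3.59e-09). The peptidase Dpp4 changed by -2.59 ± 0.10.

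Of 13 voltage-gated calcium channel and mechanosensitive genes, 1 rose and 6 fell in the cultures, with the mechanosensitive channel Piezo1 at -0.58 ± 0.05 and Tmem63a at 0.17 ± 0.06. In tumours 10 of 18 rose and 7 fell, with Cacna2d4 at -5.18 ± 0.14 (means of 0.674 CPM in tumour and 24.7 CPM in spleen). Cacna2d1, with 1804 counts in tumours against 2 in spleen, had a ratio of 905 (interval 250.1 to 7476). Of 18 chloride and volume channel genes, 10 rose and 2 fell in the cultures, with Lrrc8d, a subunit of the volume-regulated anion channel, at 0.72 ± 0.04 and Clic1 at -0.42 ± 0.04. In tumours 9 of 19 rose and 7 fell, with the potassium-chloride cotransporter Slc12a7 at -2.87 ± 0.05 and Clic4 at 3.06 ± 0.09.

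Of 7 sodium and potassium pump genes, 1 rose and 2 fell in the cultures, with Fxyd5 at -0.48 ± 0.05 and Atp1b3 at -0.38 ± 0.04. In tumours 2 of 7 rose and 3 fell, with the pump beta subunits Atp1b1 at -2.97 ± 0.06 and Atp1b3 at -1.62 ± 0.05. Of 23 calcineurin, NFAT and calmodulin genes, 8 rose and 9 fell in the cultures, with the kinase Camk2d at 0.58 ± 0.04 and Calm3 at -0.44 ± 0.03. In tumours 11 of 25 rose and 9 fell, with Calm2 at 1.84 ± 0.05 and the kinase Dyrk2 at -1.32 ± 0.05.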

How the data were processed

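Messenger RNA was measured in 14 libraries, grouped from their titles as ND-646, vehicle, tumour and spleen, and every column was matched to a sample. For each experiment the authors deposited a table of estimated counts. Per the submitters' processing notes STAR, Salmon and DESeq2 were used, without versions or roles. Build, annotation and strand setting: not given in the sources used here. Promoter coordinates are those of RefSeq. Of all values 9.16% and 9.15% were not whole (tolerance 1e-06), and of those of the 10 genes 5 of 80 and 7 of 60. Counts were rounded.

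Each comparison was fitted separately in R 4.3.3 with edgeR 4.0.16, using TMM, filterByExpr and glmQLFit with robust estimation, and p-values were adjusted by Benjamini and Hochberg over all genes (0.05). SEs derive from the F statistic and can understate the error at low counts, as for Kcna2 in tumours. Changes beyond 2-fold were tested by glmTreat. CPM values are rounded counts per 1e+06 of the TMM-scaled library. The genes and lists were chosen with earlier results of these data known. The rule for named genes took the 10 genes, 2 genes per pathway list and comparison, the leading and absent markers, and the nearest profiles. Markers are given in part, and 1 marker list is not reported here. Alternatives used limma 3.58.1 and DESeq2 1.42.0. The fit was tested on simulated data. Intervals cover counting error only.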

Additional observations from a re-analysis of the deposited data

How the results depend on the processing

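Alternatives were DESeq2 size factors, the DESeq2 Wald test, limma-voom, no filter or a stricter filter on low counts, the replicate number as a block, CD8 identity scaling and leaving out each library. In the cultures, all 135 values of the 9 genes stayed within 1 SD of the replicates. In tumours against spleen 117 of 130 did and the rest moved by more. Under CD8 identity scaling 4 genes changed sign: Kcnn4 turned to 0.10, Trpm4 to 0.41, Stim2 to 0.86 and Trpv2 to 0.77. That scaling also gave 10225 genes called higher and 1883 lower, and 28 pathway genes lower, and turned Phpt1 to 0.44. Leaving out 1 library gave 3856 to 4069 genes higher and 3514 to 3866 lower in the cultures, and 6593 to 6851 higher and 5666 to 6077 lower in the tissues. Tmem63a lost its call without ND-646 replicate 4 (0.14), vehicle replicate 1 (0.16) or vehicle replicate 2 (0.14). Apart from Tmem63a and Phpt1, the named pathway genes kept their calls and signs in every alternative run.

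With the replicate number as a block, 7864 and 12492 genes were called, and the values of the 10 genes stayed within 1 SD. Deviations of same-numbered libraries correlated at -0.12 to 0.07 in the cultures and -0.05 to -0.02 in the tissues, and 1 of 4 and 0 of 3 libraries correlated best with their own number, so the numbers are not taken to pair the samples. Depth limits Kcna2 in the cultures, where no library had more than 2 counts.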
